A study of Homo sapiens with 16 samples.

Results

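The clustered protocadherins are 53 of the 19974 protein-coding RefSeq genes used here, namely every gene on chromosome 5 whose symbol begins PCDHA, PCDHB or PCDHG. They lie in 3 neighbouring parts of hg38. The alpha part has 15 genes, from PCDHA1 to PCDHAC2, at chr5:140786140-141012347. The beta part has 16 genes, from PCDHB1 to PCDHB15, at chr5:141051374-141249365. The gamma part has 22 genes, from PCDHGA1 to PCDHGC5, at chr5:141330514-141512975. Because the alpha genes overlap one another, as do the gamma genes, the data are described by position and not by gene body.

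Open chromatin was mapped by ATAC-seq, in which the transposase Tn5 cuts accessible DNA, in 16 libraries from brain organoids. They were enriched for dorsal telencephalon, the forebrain region that forms the cortex. Their source was the human embryonic stem cell line H9, and the genotype label was WT. All groups carried the same pair of reporters. One was EGFP joined through P2A to the end of SOX2 on one allele, and the other was dTomato under the human SYN1 promoter in AAVS1. Sorted EGFP-positive cells are called progenitors and sorted dTomato-positive cells neurons. There were 8 groups, progenitors and neurons at day 40, day 60, day 90 and day 120, with 2 libraries in each, and broad peaks were listed separately for every library. Whether the line is a single clone is not in the labels, nor is whether the paired libraries are separate cultures. The p-values therefore reflect library-to-library spread, part or all of which may be technical.

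Clustered protocadherins are cadherin-like proteins of the neuronal surface that bind copies of themselves on other cells, and the combination a neuron makes serves as an identity label by which its branches avoid one another. In the alpha and gamma parts each gene is a variable exon with its own promoter, spliced to constant exons shared by the whole part, while beta genes have a single coding exon. A neuron uses a few of the variable promoters, chosen at random with the help of DNA methylation, CTCF, cohesin and distant enhancers, whereas the C-type members at the end of the alpha and gamma parts are used more uniformly. Most variable promoters share a conserved element around the letters CGCT.

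A promoter window, from 250 bases before to 50 bases after the gene start, was found in the RefSeq table of GRCh38.p14 for 47 of the 53 members, all on the plus strand. Within each part, the promoter open in all 16 libraries and the promoter open in 0 libraries that were most alike are printed, to show how alike their letters are. Mismatches carried no penalty in the alignment, so identity can be high between unlike windows. Even PCDHGC4, the member least like any other, was 49.7% identical to its closest member. Identity between unrelated windows was not measured. Capitals mark the 8-base word containing CGCT held by the most promoters of that part on the gene's strand, ATGTCGCT in alpha, GTGGCGCT in beta and GCCGCTGT in gamma. These words were chosen after the sequences and values had been seen. PCDHA2 (chr5:140794602-140794901) had a peak in 16 libraries and PCDHA8 (chr5:140840937-140841236) in 0, and 55.6% of their aligned bases were identical.
PCDHA2: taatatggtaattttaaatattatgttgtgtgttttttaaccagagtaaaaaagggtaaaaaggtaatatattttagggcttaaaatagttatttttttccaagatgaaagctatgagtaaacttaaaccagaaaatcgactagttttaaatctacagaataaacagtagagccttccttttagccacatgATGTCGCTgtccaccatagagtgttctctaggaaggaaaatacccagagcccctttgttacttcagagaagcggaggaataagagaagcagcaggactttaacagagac
PCDHA8: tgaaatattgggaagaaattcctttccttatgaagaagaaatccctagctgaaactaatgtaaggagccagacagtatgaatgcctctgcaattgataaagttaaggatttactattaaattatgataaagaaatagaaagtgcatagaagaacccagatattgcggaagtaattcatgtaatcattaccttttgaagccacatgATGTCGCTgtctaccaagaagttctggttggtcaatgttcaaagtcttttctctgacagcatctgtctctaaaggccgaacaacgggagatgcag
PCDHB16 (chr5:141182137-141182436) had a peak in 16 libraries and PCDHB13 (chr5:141213669-141213968) in 0, with 57.9% identity.
PCDHB16: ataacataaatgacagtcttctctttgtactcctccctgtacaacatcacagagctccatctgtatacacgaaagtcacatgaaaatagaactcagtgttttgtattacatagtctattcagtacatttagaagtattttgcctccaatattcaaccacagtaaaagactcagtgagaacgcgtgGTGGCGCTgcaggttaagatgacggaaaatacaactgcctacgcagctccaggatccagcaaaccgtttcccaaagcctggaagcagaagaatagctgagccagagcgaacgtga
PCDHB13: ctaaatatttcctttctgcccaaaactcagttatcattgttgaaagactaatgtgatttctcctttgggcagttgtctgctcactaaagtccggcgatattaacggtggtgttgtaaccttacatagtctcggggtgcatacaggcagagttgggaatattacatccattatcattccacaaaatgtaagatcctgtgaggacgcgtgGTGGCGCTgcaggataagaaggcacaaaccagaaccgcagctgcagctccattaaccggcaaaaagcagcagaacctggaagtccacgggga
PCDHGB6 (chr5:141407771-141408070) had a peak in 16 libraries and PCDHGB5 (chr5:141397697-141397996) in 0, with 53.8% identity.
PCDHGB6: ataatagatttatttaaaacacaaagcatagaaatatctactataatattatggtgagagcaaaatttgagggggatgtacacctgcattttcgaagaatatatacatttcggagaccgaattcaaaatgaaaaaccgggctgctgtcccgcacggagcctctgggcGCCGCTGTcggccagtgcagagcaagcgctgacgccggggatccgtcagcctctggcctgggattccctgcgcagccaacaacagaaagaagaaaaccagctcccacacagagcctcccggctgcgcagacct
PCDHGB5: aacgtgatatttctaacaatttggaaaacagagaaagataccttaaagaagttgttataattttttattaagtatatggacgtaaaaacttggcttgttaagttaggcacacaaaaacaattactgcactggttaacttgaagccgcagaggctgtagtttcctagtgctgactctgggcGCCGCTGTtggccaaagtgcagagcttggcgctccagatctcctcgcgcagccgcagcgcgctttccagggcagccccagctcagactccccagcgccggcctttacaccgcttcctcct
PCDHGB4 (chr5:141387448-141387747) is shown because it was 80.3% identical to PCDHGB5 and shared an unbroken run of 78 bases with it, while it had a peak in 13 libraries. How reads that match more than one place were handled is not given in the sources used here, so the values of this pair are uncertain. The same limit applies to PCDHB13 and PCDHB8, both with a peak in 0 libraries, which were 71.3% identical and shared a run of 55 bases. It applies too to PCDHGB6 and PCDHGB7, at 73.1% and 38 bases.
PCDHGB4: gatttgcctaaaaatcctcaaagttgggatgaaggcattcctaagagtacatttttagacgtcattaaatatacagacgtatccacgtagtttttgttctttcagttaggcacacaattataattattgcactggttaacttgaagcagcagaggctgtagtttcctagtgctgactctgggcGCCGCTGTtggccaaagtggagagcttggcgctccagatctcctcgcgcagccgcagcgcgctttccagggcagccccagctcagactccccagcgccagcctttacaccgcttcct
PCDHAC1 (chr5:140926049-140926348) is shown as a C-type promoter without any of the 3 words. It held 27 CG pairs, more than any other member promoter.
PCDHAC1: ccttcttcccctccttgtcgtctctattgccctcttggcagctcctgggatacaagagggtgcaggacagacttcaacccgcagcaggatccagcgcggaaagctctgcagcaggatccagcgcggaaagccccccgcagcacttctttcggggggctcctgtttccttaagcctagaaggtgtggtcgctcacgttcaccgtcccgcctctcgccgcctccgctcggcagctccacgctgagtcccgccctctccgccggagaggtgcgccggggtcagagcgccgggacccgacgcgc

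These words stood in promoters that were open and in promoters that were not. ATGTCGCT stood in 9 of 13 alpha promoters, which included 2 of the 5 open in 16 libraries and 5 of the 6 open in 0. GTGGCGCT stood in 13 of 14 beta promoters, with 3 of the 3 open in 16 libraries and 6 of the 6 open in 0. GCCGCTGT stood in 11 of 20 gamma promoters, with 3 of the 3 open in 16 libraries and 5 of the 13 open in 0. On either strand, the same words stood in 0.272%, 1.53% and 1.87% of all 15813 promoter windows of protein-coding genes. The letters CGCT, on either strand, stood in 46 of 47 member promoters and in 81.2% of all promoters. A CTCF-like core, searched by 8 fixed letters of the CTCF motif on either strand, stood in 1 of 47 member promoters and in 2.69% of all promoters. No match says only that these letters are not in this window. Member promoters open in 16 libraries held a median of 10 CG pairs (3 to 27, n = 11), those open in 0 held 7 (2 to 14, n = 25), and the median of all promoters was 22. The promoters open in 16 libraries included the C-type PCDHAC1, PCDHAC2, PCDHGC3 and PCDHGC4, with 27, 15, 18 and 23 CG pairs. The others among them held 3 (PCDHA2) to 16 (PCDHGB6). No C-type window was among those open in 0, so the medians compare unlike mixes of members.

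The 16 lists held 68364 to 138554 peaks and covered 36.9 to 104 Mb. The shortest, at 36.9 Mb, was progenitor day 120 replicate 2, and the next shortest list was neuron day 60 replicate 2 at 54.8 Mb. The lists hold no read numbers, so read depth is unknown and no counting interval is given. Of 8 progenitor markers, 6 (SOX2, HES1, SLC1A3, VIM, NES and FABP7) were higher in progenitors in the 20 kb bin of the gene start (limma, adjusted p under 0.05). Of 7 neuron markers tested, 4 were lower, MAPT, DCX, MYT1L and NEFM. Over all bins, 18.5% were called higher and 18.7% lower. No strand is given for MAPT and NEFM, whose bin is that of the lower coordinate. The 4 neuron markers with a given strand had a peak at the start in all 16 libraries, as had 2 of the 8 progenitor markers. Of the 9 markers of other cells whose strand is given, the starts of AIF1, CX3CR1 and P2RY12 (microglia) and NANOG (pluripotent cells) had a peak in 0 libraries. Those of CSF1R (microglia) and KCNJ13 (choroid plexus) had one in 6 progenitor and 0 neuron libraries, DPPA4 (pluripotent cells) in 3 and 0, PDGFRA in 1 and 0, and MBP in 4 and 5 (both oligodendrocyte lineage).

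At gene starts, the clusters were split into a few promoters that were open in every library and many that were open in none. A start counted as open when a peak overlapped the 500 bases on either side. Of the 53 members, 11 were open in all 16 libraries, 31 in 0 libraries and 11 in 1 to 15. Among the 47 members whose strand is given, 11 (23.4%) were open in 16 libraries and 25 (53.2%) in 0, against 56.5% and 22.6% of the 15766 other protein-coding genes whose strand is given. The same 11 and the same 31 were found with windows of 250 or 1000 bases on either side. Each list sums over many cells, so fewer cells with an open promoter and less opening in each cell cannot be told apart. Since the handling of reads with several matches is unknown, a missing peak at a promoter much like another need not mean closed chromatin.

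**Figure D1:**
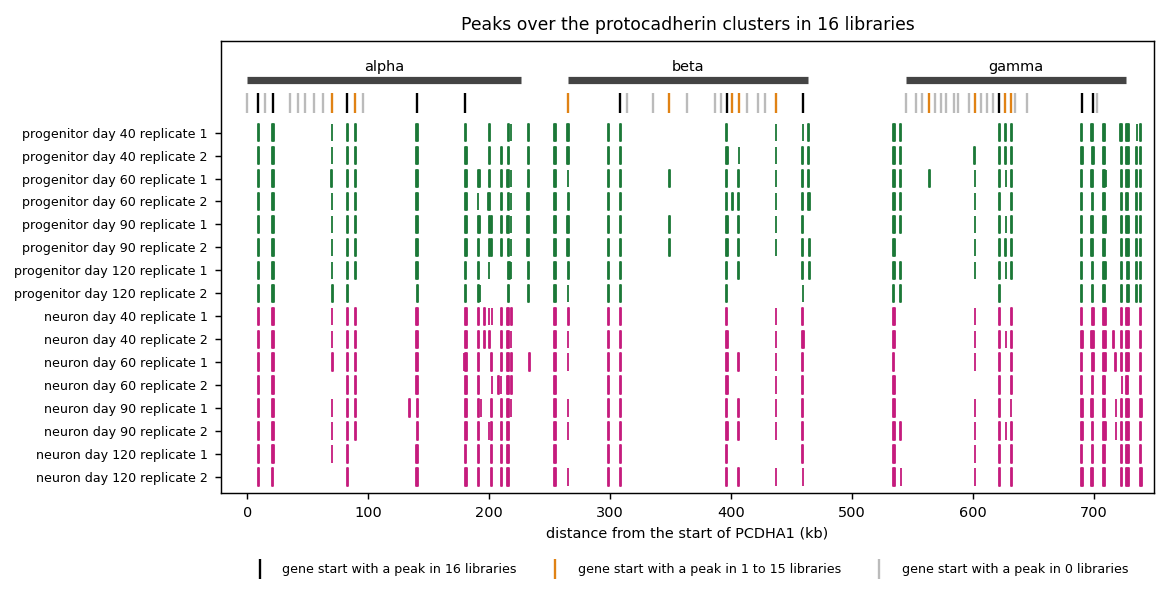
Peaks of the 16 libraries over the clusters, with distance from the start of PCDHA1 in kb on the horizontal axis and 1 library per row (progenitors above, neurons below). Ticks above the rows are the 53 gene starts by the number of libraries with a peak, black for 16, orange for 1 to 15 and grey for 0, and bars mark the 3 parts.

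Of the 5 C-type members, 4 were open in all 16 libraries. PCDHAC1 had 917 to 1529 covered bases in progenitors (median 1336) and 1140 to 1563 in neurons (median 1247) over its region. PCDHAC2 had 1016 to 1886 bases in progenitors (median 1428) and 1335 to 1668 in neurons (median 1402). The populations overlapped at both. At the far end of the gamma part, PCDHGC3 had 1048 to 1457 bases in progenitors (median 1228) and 881 to 1416 in neurons (median 1240). PCDHGC4 had 923 to 1716 bases in progenitors (median 1561) and 1109 to 1754 in neurons (median 1564). These ranges overlapped too, whereas the start of PCDHGC5, the last gamma member, was open in 0.

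Among the 13 other alpha members, PCDHA2, PCDHA4 and PCDHA11 were open in 16 libraries and PCDHA1, PCDHA3, PCDHA5, PCDHA6, PCDHA7, PCDHA8, PCDHA9 and PCDHA13 in 0. The region over PCDHA2 covered 736 to 1122 bases in progenitors (median 788.5) and 805 to 881 in neurons (median 829.5). The region over PCDHA4 covered 1155 to 1172 bases in progenitors and 1107 to 1261 in neurons. The populations overlapped at both, and the peak at PCDHA4 kept nearly the same extent in every library. The region over PCDHA11 covered 467 to 1107 bases in progenitors (median 824.5) and 448 to 1133 in neurons (median 942.5). Of the starts open in part of the libraries, PCDHA10 had a peak in 8 progenitor and 6 neuron libraries and PCDHA12 in 7 and 6. The region over PCDHA10 covered 266 to 627 bases in progenitors (median 499) and 0 to 716 in neurons (median 445.5), and again the ranges overlapped.

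In the beta part, PCDHB2, PCDHB16 and PCDHB15 were open in 16 libraries and PCDHB3, PCDHB4, PCDHB6, PCDHB7, PCDHB8, PCDHB11, PCDHB12 and PCDHB13 in 0. The region over PCDHB2 covered 469 to 1174 bases in progenitors (median 998.5) and 842 to 1185 in neurons (median 1078). The region over PCDHB16 covered 411 to 1180 bases in progenitors (median 1060) and 716 to 1189 in neurons (median 1106). At both the populations overlapped, and the lowest progenitor value came from the shortest list. PCDHB1, which begins the part, had a peak in 8 progenitor and 6 neuron libraries. Its region covered 292 to 1131 bases in progenitors (median 906) and 0 to 873 in neurons (median 447). The ranges overlapped, with both libraries at 0 among the neurons. PCDHB5 had a peak in 3 progenitor and 0 neuron libraries, PCDHB9 in 1 and 0, PCDHB10 in 6 and 4, and PCDHB14 in 6 and 7.

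In the gamma part, only PCDHGB6 and the C-type members PCDHGC3 and PCDHGC4 were open in 16 libraries. Of the 12 gamma A members, 11 were open in 0 libraries, and PCDHGA10 was the exception. Of the 7 gamma B members, PCDHGB6 was open in 16 libraries, PCDHGB1, PCDHGB4 and PCDHGB7 in 1, 13 and 15, and PCDHGB2, PCDHGB3 and PCDHGB5 in 0. The region over PCDHGB6 covered 573 to 958 bases in progenitors (median 847.5) and 752 to 959 in neurons (median 820.5). The region over PCDHGB7 covered 0 to 600 bases in progenitors (median 540.5) and 348 to 575 in neurons (median 488.5). The populations overlapped at both, and the library at 0 for PCDHGB7 is the shortest list. The first gamma start open in 13 or more libraries was PCDHGB4, 57.2 kb from the start of PCDHGA1. Of the 10 members before PCDHGB4, 9 were open in 0 libraries and PCDHGB1 in 1, while 6 of the 12 members from PCDHGB4 on had a peak in some library.

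**Figure D2:**
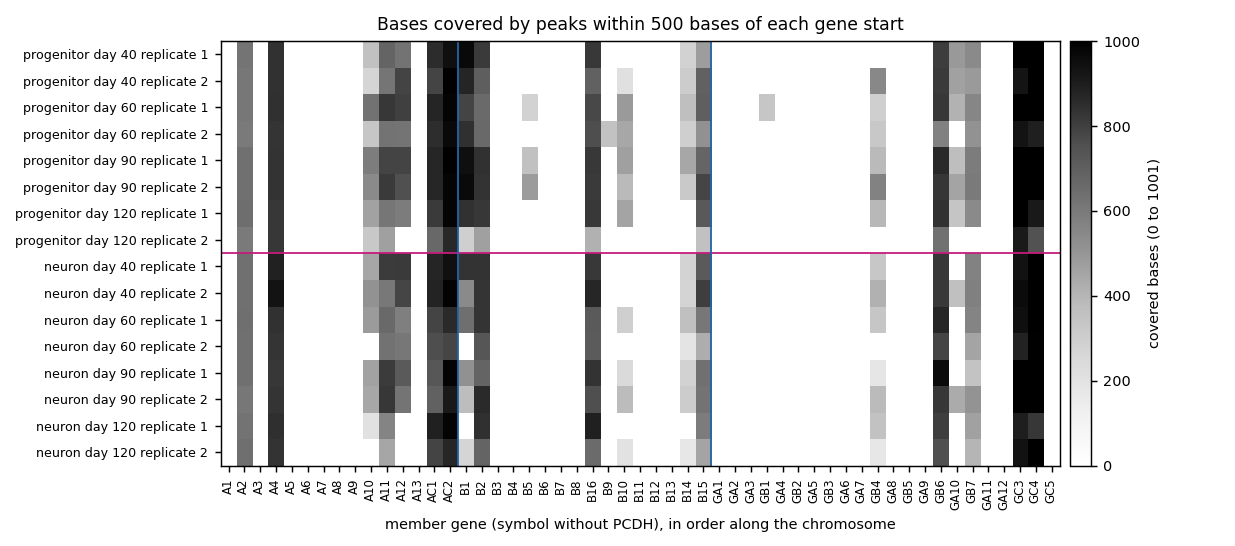
Bases covered by peaks within 500 bases of each of the 53 gene starts (columns, in order along the chromosome, blue lines between parts) in each of the 16 libraries (rows, progenitors above the pink line, neurons below), from white at 0 to black where the whole window is covered. The columns filled in every row, A2, A4, A11, AC1, AC2, B2, B16, B15, GB6, GC3 and GC4, are the 11 starts open in 16 libraries.

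The peak over PCDHA2 had the highest fold enrichment among member starts in 13 of 16 lists, and PCDHGB6, PCDHA11 and PCDHB2 had it in 1 list each. The fold enrichment is the authors' own value per peak and is used here only to rank peaks within a list. The PCDHA2 peak had a median fold of 9.81 and stood at a median of the 99.9th percentile of its own list. PCDHA4, PCDHGB6 and PCDHAC1 stood at medians of the 99.1st, 99.0th and 97.3rd percentile. At the other end, PCDHGA10 stood at the 10.1st percentile in the 8 libraries that listed it.

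No member start was called different between the populations. Fisher's exact test (two-sided, 8 against 8 libraries, Benjamini-Hochberg over all genes open in 2 to 14 libraries) called 0 of the 8 members that could be tested, and 0 of the 8 at an unadjusted p under 0.05. Over all 2901 genes tested, with or without a given strand, 0.655% were called. The widest gap was at PCDHGA10, open in 6 libraries of progenitors and 2 of neurons (p = 0.132 by Fisher's exact test, adjusted p = 0.676). Its region covered 0 to 762 bases in progenitors (median 395) and 0 to 611 in neurons (median 0), and the populations overlapped. In all, 8 members were open in more progenitor libraries, 3 in more neuron libraries, and 42 in equal numbers. The open or closed status of the 53 starts differed at 0 to 5 members between the 2 libraries of a group (median 3, 8 pairs) and at 1 to 7 between the populations of a day (median 2, 16 pairs).

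Per library, 13 to 21 starts were open in progenitors (median 19) and 14 to 19 in neurons (median 17.5). Peaks covered 10.4 ± 2.01 kb of the alpha part in progenitors and 10.6 ± 1.45 kb in neurons (SD, n = 8 each). They covered 4.33 ± 1.24 kb of the beta part in progenitors and 3.87 ± 0.713 kb in neurons. They covered 7.61 ± 1.41 kb of the gamma part in progenitors and 7.65 ± 1.60 kb in neurons. The ranges of the populations overlapped in each part, and no test was run on these sums. As a share of its length the beta part was the least covered, at 2.18% in progenitors and 1.96% in neurons, against 4.58% and 4.69% of the alpha part and 4.17% and 4.19% of the gamma part. In progenitor day 120 replicate 2, the shortest list, 13 starts were open and 13.2 kb of the 3 parts was covered.

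**Figure D3:**
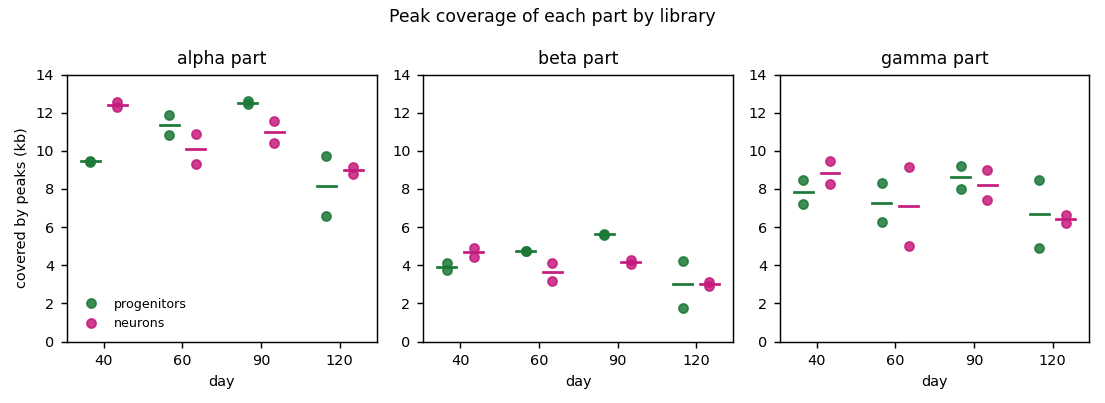
Length covered by peaks in each part (kb, vertical axis) at each day (horizontal axis), with 1 point per library, progenitors in green on the left of each day and neurons in pink on the right, and a line at the mean of the 2 libraries. Values of the populations overlap over the 16 libraries in each part, and the lowest progenitor points at day 120 belong to the shortest list.

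Merged over all libraries, the peaks formed 39 regions in the parts, 18 in alpha, 9 in beta and 12 in gamma. Of these, 16 (41.0%) had a peak in all 16 libraries, compared with 7.72% of the 321056 regions of the genome. The sets are unlike, with a median width of 1049 bases in the parts and 652 in the genome. Of the 16, 11 lay at gene starts, and the share of genome regions at gene starts was not counted. Gene starts accounted for 22 regions, and 17 lay elsewhere, of which 11 were in alpha, 1 in beta and 5 in gamma. Of those 17, 5 were open in all 16 libraries. The beta one, at chr5:141084180-141085228, lay 9387 bases before PCDHB2. In alpha it was chr5:141001209-141003208, the widest alpha region, with 885 to 1421 covered bases in progenitors (median 1262) and 1189 to 1469 in neurons (median 1310). In gamma they were chr5:141493616-141496365, the widest of all at 2750 bases, then chr5:141508008-141509631, and chr5:141512878-141515364. This last region lies mostly past the end of the part at 141512975 and overlaps DIAPH1. The widest beta region, chr5:141245089-141246473, was the one over the start of PCDHB15.

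No region inside the parts was called different between the populations. Of 15 regions tested by Fisher's exact test, 0 were called, and 1 had an unadjusted p under 0.05, while 4.33% of all regions tested in the genome were called. That one, chr5:140987809-140988734, lies 21333 bases past the start of PCDHAC2 and was open in 2 libraries from progenitors and 7 from neurons (p = 0.0406 by Fisher's exact test, adjusted p = 0.223). It covered 0 to 327 bases in progenitors (median 0) and 0 to 776 in neurons (median 456). The 2 progenitor libraries with a peak were those of day 90, and the 1 neuron library without one was day 40 replicate 2.

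Other regions inside PCDHAC2, past its start, also varied from library to library. At chr5:140985525-140986850, 7 progenitor and 3 neuron libraries had a peak, with 0 to 1263 bases in progenitors (median 971.5) and 0 to 1041 in neurons (median 0). At chr5:140995550-140996551 the counts were 5 and 8, with 0 to 774 bases in progenitors (median 491.5) and 414 to 916 in neurons (median 657). At chr5:140976753-140978747 they were 6 and 8, and the 2 progenitor libraries without a peak were those of day 40. Ranges overlapped in all 3 regions, and their adjusted p-values were 0.414, 0.485 and 0.662 by Fisher's exact test.

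Just outside the parts, 2 regions were open in progenitors and nearly absent in neurons. Within 20 kb of a part there were 7 regions, 4 were tested and 2 were called higher in progenitors, where 3.06% of all regions tested were called in that direction. The first, chr5:141017769-141019692, lies 5.42 kb past the end of the alpha part. It covered 636 to 1147 bases in progenitors (median 1024) and 0 to 920 in neurons (median 0), with a peak in 8 progenitor libraries and 1 neuron library, day 60 replicate 1 (Fisher's exact test, adjusted p = 0.0323). The ranges overlapped only through that neuron library.

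The second, chr5:141521137-141521996, lies 8.16 kb past the end of the gamma part, inside DIAPH1, which encodes an actin-nucleating formin. It covered 232 to 860 bases in progenitors (median 429.5) and 0 in each neuron library, with a peak in 8 and 0 libraries (Fisher's exact test, adjusted p = 0.0118). The populations did not overlap. Within the lists that held them, peaks of the first region stood at a median of the 81.5th percentile of fold enrichment and those of the second at the 17.4th. By Fisher's exact test, both calls were lost in lists of equal length (adjusted p = 0.0596 and 0.609) and when peaks had to cover 50% of a region (0.136 and 0.397). Without the 2 shortest lists the first region had an adjusted p of 0.067, and with each library left out in turn both were called. For regions, the replicate block was a sign test over 8 pairs of libraries with the same day and replicate number. Its smallest possible p gave an adjusted p of 0.320, which both regions had. No region could be called by it, so it cannot show whether the calls hold.

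The other 2 regions tested outside the parts missed the threshold. At chr5:141250109-141251159, 0.744 kb past the beta part, 6 progenitor and 0 neuron libraries had a peak (p = 0.00699 by Fisher's exact test, adjusted p = 0.0800). It covered 0 to 985 bases in progenitors (median 591.5) and 0 in each neuron library. At chr5:141326123-141326632, 3.88 kb before the gamma part, the counts were 7 and 2 (adjusted p = 0.223). Between the alpha and beta parts, chr5:141039646-141041422 was open in all 16 libraries, with 1605 to 1748 bases in progenitors and 1659 to 1774 in neurons.

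**Figure D4:**
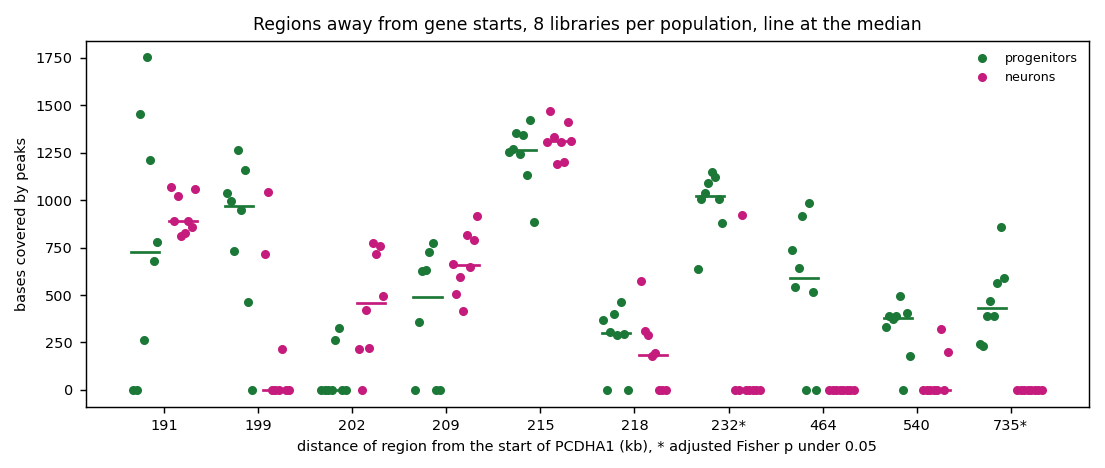
Bases covered by peaks (vertical axis) in 10 regions away from gene starts, given by distance from the start of PCDHA1 in kb, with 1 point per library (8 progenitors in green on the left, 8 neurons in pink on the right) and a line at the median. At the 2 regions marked with an asterisk, progenitors had a peak in 8 libraries and neurons in 1 and 0.

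Fixed bins of 20 kb gave a second view that does not depend on where peaks were merged. Coverage was taken as log2 of the covered bases plus a pseudocount of 500, minus log2 of the library's covered total, so differences are on that scale, and ± is the SE of the limma fit. Of 33 bins over the parts, 18 could be tested, and progenitors minus neurons gave 1 higher and 0 lower bins, 3 at an unadjusted p under 0.05, where 37.1% of all 90051 bins were called, 18.5% higher and 18.7% lower. That bin, chr5:141000001-141020000, holds the end of the alpha part together with the first called region past it. It covered 1765 to 2783 bases in progenitors and 1204 to 2544 in neurons, on average 2.50 ± 0.363 kb and 1.63 ± 0.437 kb (SD, n = 8 each), and the ranges overlapped. Its difference was 0.46 ± 0.13 (limma, adjusted p = 0.00782). Within this bin, the called region outside the part covered on average 991 bases in progenitors and 115 in neurons. Inside the part, chr5:141001209-141003208 covered 1238 and 1317, and chr5:141004061-141004886 covered 267 and 193. The gap thus lay in the region outside the part, and the bin is not a separate sign of a difference inside it. The median over the 18 bins was 0.00 and over all bins -0.04.

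Single libraries moved this count. It was 2 when replicate 1 of the progenitors was left out at day 90 or at day 120, and also without replicate 2 of the neurons at day 40 or replicate 1 of the neurons at day 60. It was 4 without progenitor day 120 replicate 2, the shortest list, in which case 1 bin was higher and 3 were lower. With lists of equal length it was 5, and with a pseudocount of 2000 bases 0. The bin at the end of the alpha part was called with each library left out in turn, at 0.37 to 0.55 (limma, adjusted p from 0.00047 to 0.0234).

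At day 120 alone, the bin chr5:140980001-141000000, which lies inside PCDHAC2 past its start, was lower in progenitors. Progenitor libraries covered 466 and 0 bases and neuron libraries 1550 and 1409 bases, so the groups did not overlap. The difference was -1.43 ± 0.29 (limma, adjusted p = 0.00626), and it was the 1 bin of 18 called, where 7.97% of all bins were called and 3.05% were lower. With a pseudocount of 2000 bases the difference was -0.57 (adjusted p = 1). Without neuron day 120 replicate 1 or 2 its adjusted p was 0.0606 or 0.0664. The library at 0 bases is the shortest list, and without it the difference was -1.56 (adjusted p = 0.00807). Without progenitor day 120 replicate 1, which leaves 1 progenitor library that is assumed to vary like the other groups, 4 bins were called at day 120, 3 of them higher in progenitors, and 2 bins were called with peaks at −log10 q of at least 2 and without the 2 shortest lists.

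At days 40, 60 and 90, limma called 0 of the 18 bins, with 1, 0 and 0 at an unadjusted p under 0.05, where 16.5%, 14.2% and 11% of all bins were called. The bins with the widest differences were chr5:141400001-141420000 at day 40 (0.58 ± 0.28), chr5:141240001-141260000 at day 60 (0.62 ± 0.35) and chr5:141500001-141520000 at day 90 (-0.50 ± 0.25). With lists of equal length, 3, 2 and 1 bins were called at days 40, 60 and 90, and without the 2 shortest lists 3, 0 and 1. Without scaling the counts were 1, 0 and 1, with 10 kb bins 2, 0 and 1, and without either progenitor library of day 120 they were 1, 0 and 0.

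**Figure D5:**
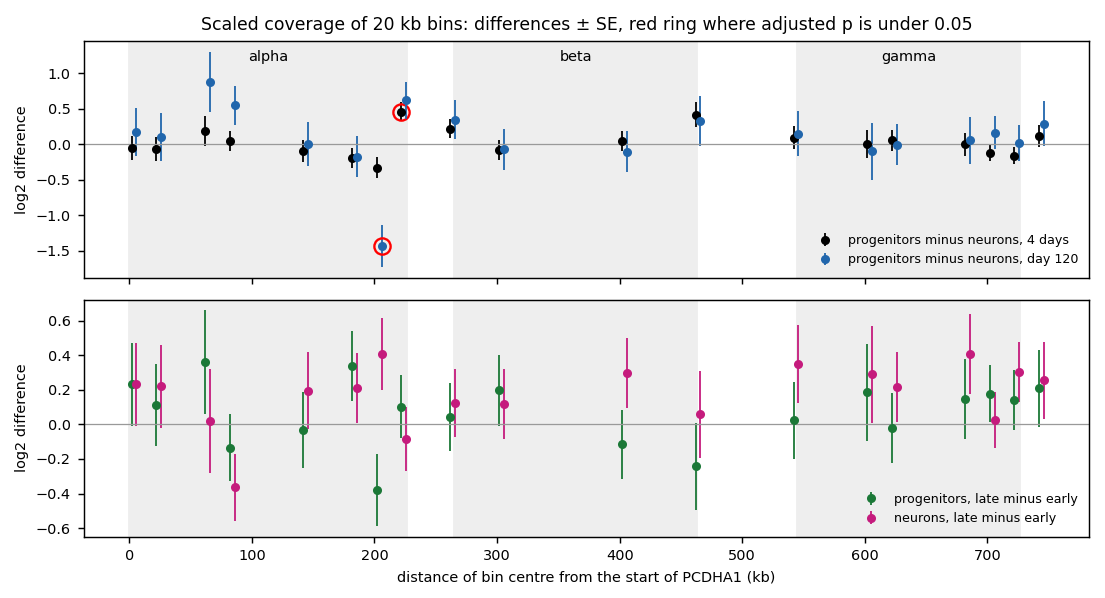
Log2 differences in scaled coverage (vertical axis, bars are the SE of the limma fit) of the 20 kb bins in and beside the parts against distance from the start of PCDHA1 in kb. Above are progenitors minus neurons over the 4 days (black) and at day 120 (blue), below are days 90 and 120 minus days 40 and 60 in progenitors (green) and neurons (pink). Red rings mark the 2 called differences, 0.46 and -1.43.

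Days 90 and 120 minus days 40 and 60 gave 0 called bins of 18 in progenitors and 0 in neurons, and 0 in each at an unadjusted p under 0.05 (limma), where 7.5% and 11% of all bins were called. In progenitors the widest difference was -0.38 ± 0.21 and in neurons 0.41 ± 0.21, both at chr5:140980001-141000000. The change with age was not found to differ between progenitors and neurons in any bin, with 0 of 18 called and 1 at an unadjusted p under 0.05, where 1.72% of all bins were called. The widest interaction was at the same bin, -0.79 ± 0.29 (limma, adjusted p = 0.161). Without progenitor day 120 replicate 1, 1 bin was called late minus early in progenitors.

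Genes that act on the clusters or with their products were read in the same fit. In the bin of the gene start, 0 of 10 genes of loop extrusion and boundaries (CTCF, the cohesin subunits and their loaders and releasers) and 0 of 11 genes of silencing and DNA methylation were called in any contrast over the 4 days, where 37.1% of all bins were called for progenitors minus neurons, 7.5% and 11% for late minus early in progenitors and in neurons, and 1.72% for the interaction. Of 11 signalling partners, PTK2B, a kinase of the focal adhesion family that binds protocadherin tails in rodents, was lower in progenitors (-0.47 ± 0.13, limma, adjusted p = 0.00888, where 18.7% of all bins were lower). No strand is given for PTK2B, so its bin is that of the lower coordinate. CYFIP1, a subunit of the actin-regulating WAVE complex, was higher in late than in early neurons (1.02 ± 0.24, adjusted p = 0.00704, where 8.65% of all bins were higher). Of the 6 neighbours of the clusters 5 were tested and 0 were called, and the 5 with a known strand had an open start in 16 libraries. Median differences of the first 3 lists for progenitors minus neurons were -0.08, -0.05 and -0.08, against -0.04 over all bins.

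Of 17 markers of other cells tested, 7 (41.2%) were called between progenitors and neurons, 5 higher and 2 lower, where 37.1% of all bins were called. Of 3 choroid plexus markers, TTR and KCNJ13 were higher in progenitors (1.13 ± 0.17 and 0.80 ± 0.22), with 2.40 to 8.10 kb covered over the list in progenitors and 1.88 to 7.14 kb in neurons. Of the other lists, 1 of 3 microglial markers (CSF1R) and 1 of 4 oligodendrocyte markers (OLIG1) were higher. Of 2 endothelial markers 1 (PECAM1) was lower, and of 4 mesenchymal markers COL1A2 was higher and DCN lower. No strand is given for TTR, OLIG1, PECAM1, COL1A2 and DCN. Their bin is that of the lower coordinate, which may be the far end of the gene. Summed coverage was 2.94 to 10.5 kb in progenitors and 3.86 to 9.80 kb in neurons for microglia, 11.7 to 25.2 kb and 11.9 to 37.8 kb for oligodendrocytes, 2.98 to 7.89 kb and 3.53 to 8.13 kb for endothelium, and 2.58 to 10.3 kb and 3.33 to 14.8 kb for mesenchyme. The 1 pluripotency marker tested was not called. The part of these cells in the protocadherin values was not tested.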

How the data were processed

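ATAC-seq of 16 libraries was deposited as 1 list of broad peaks per library, called per library as the peak names show. The submitters' processing notes name MACS2 2.1.2, SAMtools 1.9, Picard, Trim Galore 0.5.0 and BWA 0.7.17, and the build hg38. How duplicates, multiple matches, mitochondrial reads or the offset of Tn5 were treated was not given in the sources used here. Each deposited list gives an integer score, a ratio (the fold enrichment over background), a −log10 p-value and a −log10 q-value for each peak, all made by the authors. Only the presence and extent of peaks were compared between libraries.

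Members and gene lists were chosen with earlier results of these data known. Genes came from RefSeq GRCh38.p14, on chromosomes 1 to 22 and X. Strand came from the promoter table. Genes without an entry there, among them PCDHA3, PCDHA13, PCDHB6, PCDHB11, PCDHGA12 and PCDHGC5, took their lower coordinate as the start, and the listed gene starts and the background shares were counted over genes with a strand.

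Peaks overlapping by at least 1 base were merged into regions. Fisher's exact test, two-sided, was run on regions and gene starts open in 2 to 14 libraries. Bins of 20 kb in which 2 or more libraries had 500 or more covered bases were fitted with limma 3.58.1 (R 4.3.3) in 1 model of 8 groups with a variance trend. All p-values were adjusted by Benjamini-Hochberg over the whole table, with a threshold of 0.05. Both tests were first tested on simulated data. Alignments used Biopython 1.88. Regions within 20 kb outside the parts were added after the data were seen.

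Named are the first and last member of each part, C-type members, members open in 16 or 0 libraries or differing by 4 or more libraries, called regions and bins or else those that differed most, the widest region of each part, and listed genes past the threshold. The other members open in some libraries, the additional regions past the start of PCDHAC2 and the regions outside the parts were chosen after their values were seen. Alternatives were other windows, bins, pseudocounts, filters, peak cuts and list lengths, each library left out, and the replicate block.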

Additional observations from a re-analysis of the deposited data

Results flagged for a closer look

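Among the values tested, 2 of progenitor day 120 replicate 2, whose list is the shortest at 36.9 Mb, were flagged against the other progenitor libraries. It had 6 open alpha starts where each of the other 7 progenitor libraries had 7. Where all other values are equal, any different value is flagged, so this flag does not show a large gap. Its peaks covered 13.25 kb of the 3 parts, where the next lowest progenitor library covered 20.7 kb. Of the 16 sets of values examined in this way, chance would flag about 1 in 20, a rate that does not hold for counts with equal values.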

How the results depend on the processing

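The differences in covered kilobases and in open starts moved by less than 1 SD under each alternative, and the 0 called regions and 0 called starts inside the parts stayed 0. The 2 regions called outside the parts became 0 when peaks had to cover 50% of a region and 0 with lists of equal length. The count became 1 without the 2 shortest lists (chosen after seeing the data), and 2 to 3 with each library left out. With the replicate block, a sign test for regions, no region inside or outside the parts could be called. The 1 bin called for progenitors minus neurons became 2 without scaling, 2 with a pseudocount of 100 bases, 0 with 2000 bases, 3 with 10 kb bins, 0 with 50 kb bins, 5 with lists of equal length and 4 without the 2 shortest lists, and 1 to 4 with each library left out. At 2000 bases its difference was 0.26 (limma, adjusted p = 0.301). Late minus early in progenitors gave 1 with 10 kb bins and 1 with lists of equal length, and 0 to 1 with each library left out. In neurons it gave 3 with lists of equal length and 2 without the 2 shortest lists, and the interaction gave 1 and 2. The cause of these moves was not tested. No difference called at 20 kb reversed. Differences that were not called did change sign. Progenitors minus neurons in covered kb, -0.25 in alpha, 0.453 in beta and -0.0431 in gamma, was -0.395 in beta and 0.320 in gamma with lists of equal length, 0.626 in alpha and 0.312 in gamma with 20 kb added on either side, 0.106 in alpha without the 2 shortest lists, and with a library left out -0.569 to 0.291 in alpha and -0.421 to 0.343 in gamma. At day 40, with lists of equal length, the bin starting at 140980001 was 1.60, against -0.12 with full lists, and that at 141240001 was -1.60, against 0.52.

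With lists of equal length, 8 members were open in 16 libraries and 37 in 0, and with peaks at −log10 q of at least 2, 10 and 33. Replicate numbers are shared between progenitors and neurons. Replicate differences correlated at -0.06, 0.12, 0.05 and 0.08 over bins at days 40, 60, 90 and 120. These values cannot settle whether libraries with the same number share a culture, because spread between libraries may hide it. With the replicate block in the limma fit, 1 bin was still called (adjusted p = 0.00825). For both outside regions the sign test over pairs gave an adjusted p of 0.320, the lowest that any region could reach. Read depth is unknown, so an absent peak may lie below what a library could show.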
